A study of Mus musculus with 4 samples.

Results

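Polycomb repressive complex 2 (PRC2) places methyl groups on lysine 27 of histone H3, a mark of silenced developmental genes. Its core is made of Ezh2, the methyltransferase, Eed, which binds the finished mark, and Suz12, the scaffold that holds the complex together. Jarid2 and Aebp2 form one kind of accessory subunit, and the Polycomb-like proteins Mtf2 and Phf19 form the other. In embryonic stem cells these accessory subunits help to bring the complex to CpG-rich DNA. Sox2, an HMG-box transcription factor, keeps these cells pluripotent together with Oct4.

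Described here are the 7 genes Jarid2, Mtf2, Aebp2, Phf19, Ezh2, Eed and Suz12, out of 21887 protein-coding genes, in 4 lists of Sox2 peaks. They are the 3 core subunits and 4 accessory subunits named above, not every gene of the complex, and were picked with earlier results of these data known. A further list of Polycomb genes, with other PRC2 subunits such as Rbbp4, is given at the end. A peak was counted at a gene when its centre lay in the gene body or within 50 kb of it. All libraries came from D3 mouse embryonic stem cells and were made by ChIP-exo, in which an exonuclease trims the isolated DNA up to the crosslinked protein. Halo-Sox2D keeps residues 1 to 120 of Sox2, which hold the DNA-binding HMG box without the C-terminal activation region. Halo-Sox2M carries the HMG-box changes labelled M47G, F50 and M51G, with no replacing residue given for F50. Halo-Sox2 is the tagged protein without labelled changes. These 3 fusions carry HaloTag, an engineered enzyme that couples itself to a synthetic ligand, and were isolated on HaloLink resin. Endogenous Sox2 was isolated with an antibody. How the fusions were expressed, and whether the endogenous protein was still present beside them, is not given in the sources used here.

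Each group had 1 library, so no difference has a replicate check and no test between groups was made. The Halo-Sox2D list held 13833 peaks, that of Halo-Sox2M 1711, that of Halo-Sox2 6558 and that of endogenous Sox2 7153, each peak 1 to 20 bp wide. They give positions only. Read depth and peak height are unknown, and the length of a list cannot be told apart from depth or calling threshold. The lists hold no expression values, so the labelled cell type could not be checked against markers. All intervals are 95% intervals that cover counting error only, and peaks that lie close together are not independent.

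Sox2 peaks gathered at Jarid2 and Mtf2, which held 43 of the 60 peaks at the 7 genes. Endogenous Sox2 had 30 peaks and was the only library with a peak at all 7 genes. Halo-Sox2D had 16 peaks at 4 genes, Halo-Sox2M had 2 peaks at 2 genes and Halo-Sox2 had 12 peaks at 6 genes. In the same kind of window, a Halo-Sox2D peak was found at 57.7% of protein-coding genes, a Halo-Sox2M peak at 6.37%, a Halo-Sox2 peak at 32.3% and an endogenous Sox2 peak at 27.4%. A peak of any library was found at 68.9% of them. The share of PRC2 genes with a peak was 57.1% for Halo-Sox2D (Wilson interval 25 to 84.2%), which is near that background. It was 28.6% for Halo-Sox2M (8.22 to 64.1%) and 85.7% for Halo-Sox2 (48.7 to 97.4%). All 7 genes had an endogenous Sox2 peak, with a lower bound of 64.6%. The windows of the 7 genes were 121 to 291 kb long, each above the median of 117 kb, and the backgrounds are not matched for length. The genes were also picked with earlier results known, so the comparison is a description. The intervals of Halo-Sox2 and endogenous Sox2 lay above their backgrounds. That of Halo-Sox2M did so narrowly and rested on 2 genes: in windows of 20 kb, in gene bodies or by nearest gene 1 gene was left. Nor was endogenous Sox2 alone in front under each setting: Halo-Sox2 and endogenous Sox2 had peaks at 5 and 5 genes in windows of 20 kb, at 7 and 7 in windows of 100 kb, at 6 and 5 by nearest gene, and in the bodies of 3 and 2.

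**Figure D1:**
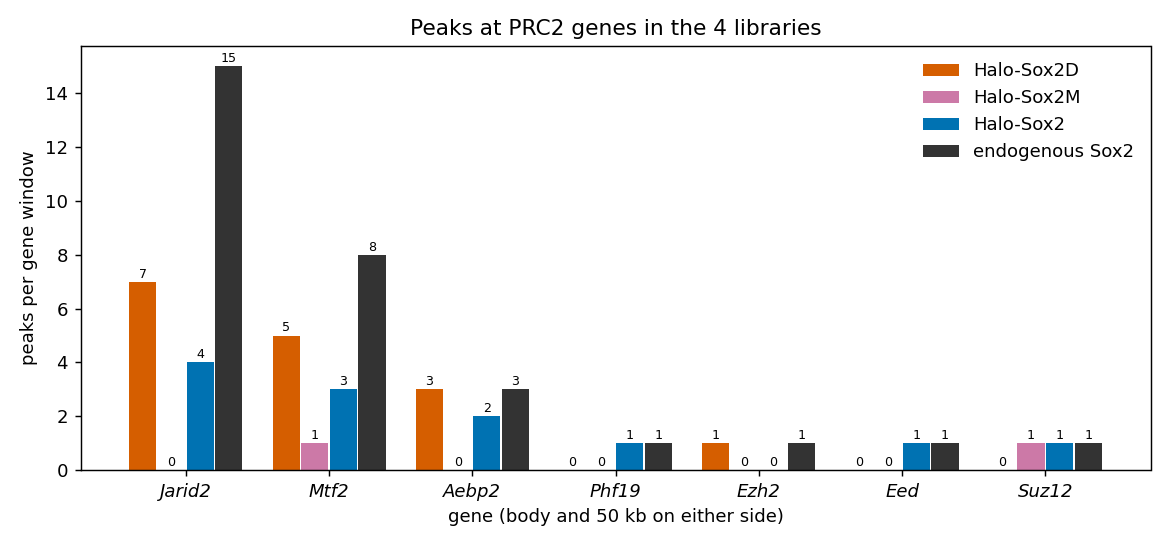
Number of peaks (vertical axis) in the window of each PRC2 gene (horizontal axis: gene body and 50 kb on either side), with 1 bar per library. Jarid2 holds 7, 0, 4 and 15 peaks of Halo-Sox2D, Halo-Sox2M, Halo-Sox2 and endogenous Sox2, and each of Phf19, Ezh2, Eed and Suz12 holds at most 1 peak per library.

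The letters under the peaks can be shown for Mtf2, since it was the only one of the 7 genes with peak centres in a listed promoter window, 250 bases before to 50 bases after an annotated start. The bases before the gene (RefSeq, GRCm38.p6, which has the coordinates of mm10, chr5:108065424-108065659, plus strand) are printed 5′ to 3′, with capitals for bases covered by a peak.
Mtf2 promoter: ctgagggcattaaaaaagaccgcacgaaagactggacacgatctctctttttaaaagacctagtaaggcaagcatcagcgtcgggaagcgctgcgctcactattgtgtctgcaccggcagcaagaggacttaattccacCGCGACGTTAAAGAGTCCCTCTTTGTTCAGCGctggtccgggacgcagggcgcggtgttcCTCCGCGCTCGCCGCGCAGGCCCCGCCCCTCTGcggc
The first run of capitals, 32 bases long, is covered by Halo-Sox2D peaks at 108065563 to 108065581 and 108065578 to 108065581 and by an endogenous Sox2 peak at 108065579 to 108065594. The second run, 33 bases long, is covered by a Halo-Sox2D peak at 108065636 to 108065655 and an endogenous Sox2 peak at 108065623 to 108065639. In each run a Halo-Sox2D peak and an endogenous Sox2 peak overlapped, and Halo-Sox2M and Halo-Sox2 had no peak there.

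Peaks of Halo-Sox2D and endogenous Sox2 in the same promoter window were rare. Of all protein-coding genes, 0.192% (42 genes) had centres of both libraries in a promoter window, 5.41% had a Halo-Sox2D centre and 0.507% an endogenous Sox2 centre. A Halo-Sox2M centre was found in promoters of 0.279% of genes and a Halo-Sox2 centre in 0.859%. The motifs were searched on either strand and counted separately, so a promoter can hold more than 1 of them. CATTGT and CTTTGT are cores of known Sox-binding sequences, and ATGCAAAT is the octamer bound by Oct4. In the printed stretch CTTTGT occurred once, at 108065583 to 108065588, under the endogenous Sox2 peak of the first run and 1 bp from its centre, and neither of the other motifs occurred. Over all 32851 listed promoters, 18.7% held CTTTGT, 12.6% CATTGT and 1.74% ATGCAAAT, so that CTTTGT somewhere in a promoter is common. How often it lies under a peak was not counted. Of the 11 listed promoters of the PRC2 genes, 5 held CTTTGT, at Mtf2, Ezh2 and Aebp2, and 0 held either of the other motifs.

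Jarid2 encodes a catalytically inactive relative of the jumonji demethylases that binds and stimulates PRC2. The gene (chromosome 13, 44730774 to 44921643, plus strand) had 7 Halo-Sox2D peaks, 0 Halo-Sox2M peaks, 4 Halo-Sox2 peaks and 15 endogenous Sox2 peaks. Endogenous Sox2 thus gave more peaks here than the 3 fusions together. As many endogenous Sox2 peaks were found at 0.032% of protein-coding genes (7 genes, Jarid2 among them), as many Halo-Sox2D peaks at 2.92% and as many Halo-Sox2 peaks at 1.84%. These numbers count closely spaced peaks singly. With centres within 50 bp of the same library merged, 11 endogenous Sox2, 6 Halo-Sox2D and 4 Halo-Sox2 peaks remained. With neighbouring centres within 500 bp joined, endogenous Sox2 and Halo-Sox2D each lay in 6 stretches and Halo-Sox2 in 4. The Jarid2 window is long, 291 kb against a median of 117 kb, and 4.81% of windows are as long. Per 100 kb of window it held 2.41 Halo-Sox2D, 1.38 Halo-Sox2 and 5.16 endogenous Sox2 peaks, reached by 16.6%, 8.46% and 0.512% of genes. Scaled to length, Jarid2 stood out less in each of the 3 lists, and it stayed among the densest genes in the endogenous Sox2 list.

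Most peaks at Jarid2 fell into 4 short stretches held by more than 1 library, where peaks were joined into a place when neighbouring centres lay within 500 bp. The fullest place lay inside the gene, 21.2 kb from its start and 11% of the way along it, and spanned 189 bp (44751836 to 44752024). It held 2 Halo-Sox2D peaks, 1 Halo-Sox2 peak and 5 endogenous Sox2 peaks. There 1 Halo-Sox2D peak (44751940 to 44751958) overlapped the Halo-Sox2 peak (44751951 to 44751964), and the other (44751926 to 44751934) overlapped an endogenous Sox2 peak (44751921 to 44751932). The nearest centres of Halo-Sox2 and endogenous Sox2 were 18 bp apart without overlap. Peaks of the 3 libraries were thus interleaved at this place.

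Before the gene, 2 places were held by Halo-Sox2D and endogenous Sox2 without Halo-Sox2. The place 25.3 kb before the start (44705312 to 44705678) had 1 Halo-Sox2D and 3 endogenous Sox2 peaks, and the nearest centres were 16.5 bp apart. The place 8.41 kb before the start (44722239 to 44722487) also had 1 Halo-Sox2D and 3 endogenous Sox2 peaks, 62.0 bp apart at the nearest. Deep in the gene the reverse was seen at 121 kb from the start (44851586 to 44851684), where 1 Halo-Sox2 peak of 1 bp lay 7.5 bp from the nearer of 2 endogenous Sox2 peaks and Halo-Sox2D had none. All 4 Halo-Sox2 peaks at Jarid2 lay inside the gene.

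The remaining peaks at Jarid2 lay apart from those of other libraries. Halo-Sox2D had 3 of them inside the gene, 24.8, 103 and 115 kb from the start, and Halo-Sox2 had 2, at 32.9 and 100 kb. Endogenous Sox2 had 1 at 124 kb and 1 at 17.8 kb past the end of Jarid2, inside the neighbouring gene Dtnbp1. Whether any of these positions is an exon could not be told from the gene table used.

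**Figure D2:**
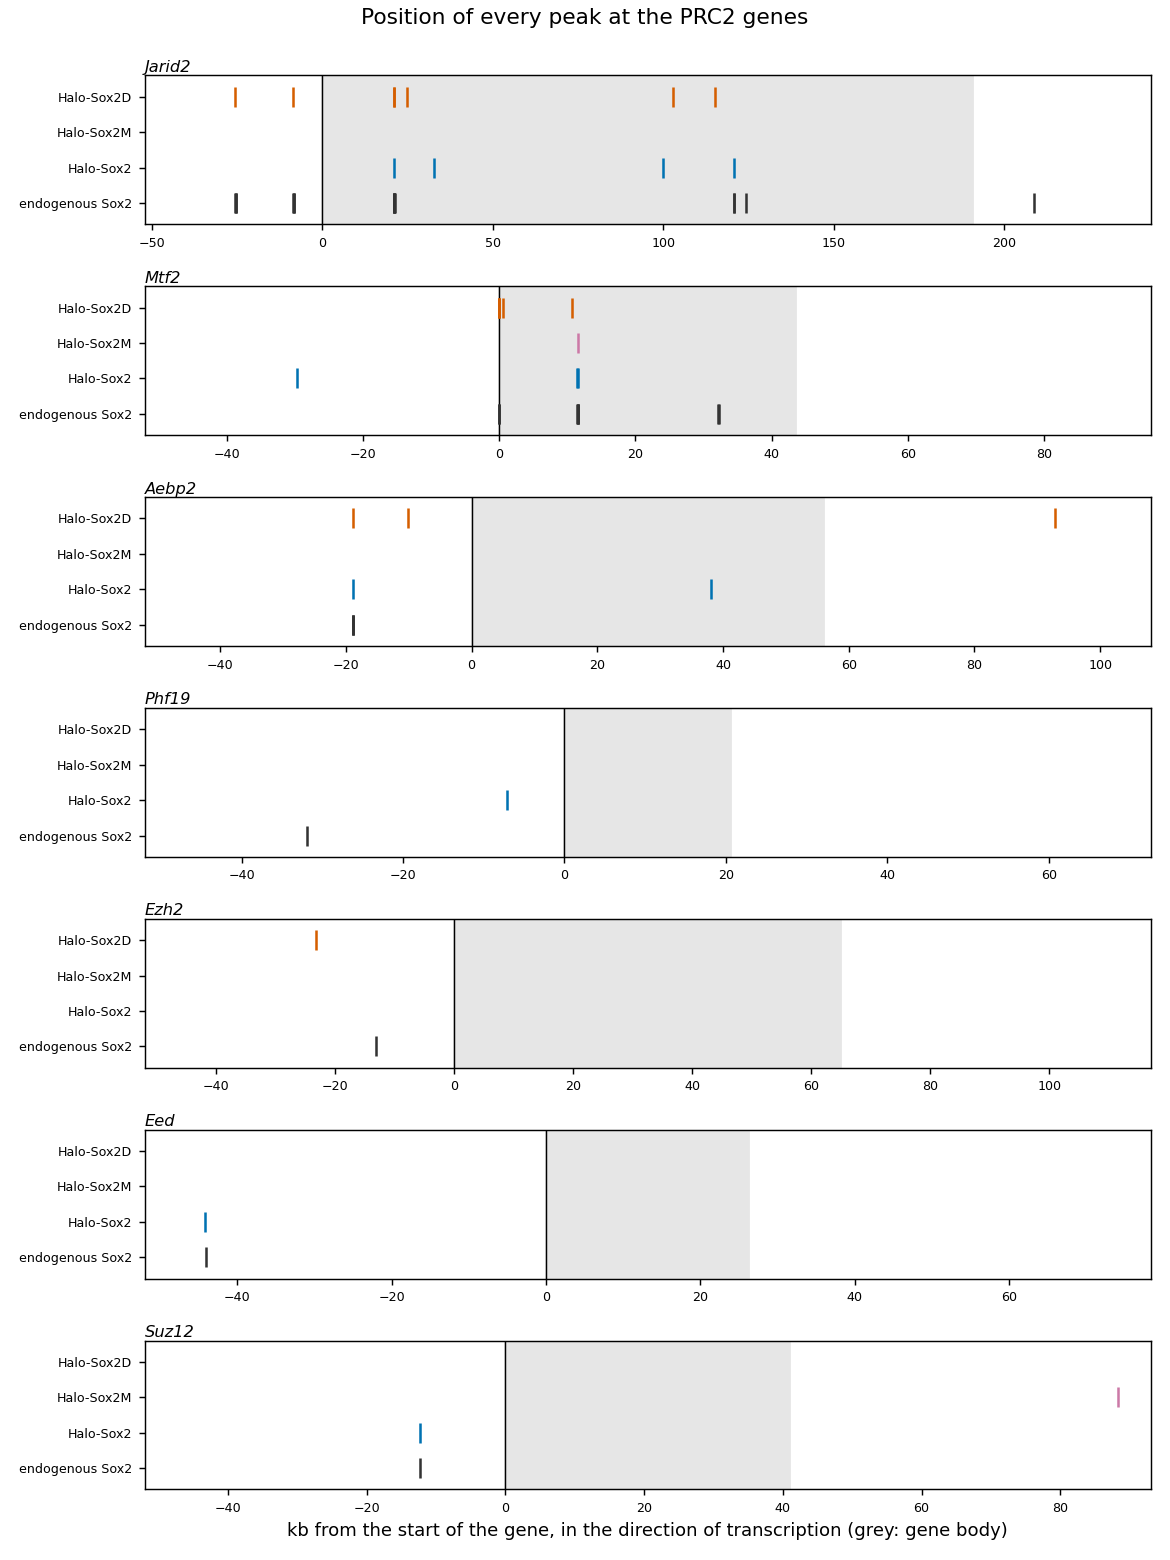
Position of each peak at the 7 genes in kb from the start of the gene in the direction of transcription (horizontal axis), with 1 row of ticks per library and the gene body in grey. Ticks of 2 or more libraries line up at Jarid2, Mtf2, Aebp2, Eed and Suz12, and at Phf19, Ezh2, Eed and Suz12 no tick lies in the gene body.

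Mtf2, also named Pcl2, encodes a Polycomb-like protein that binds unmethylated CpG-rich DNA and methylated lysine 36 of histone H3. The gene (chromosome 5, 108065660 to 108109219, plus strand) had 5 Halo-Sox2D peaks, 1 Halo-Sox2M peak, 3 Halo-Sox2 peaks and 8 endogenous Sox2 peaks. It was the only PRC2 gene with a peak of every library, as were 1.77% of protein-coding genes. As many Halo-Sox2D peaks lay at 8.32% of genes, as many Halo-Sox2 peaks at 4.53% and as many endogenous Sox2 peaks at 0.448%. Its window of 144 kb held 3.48 Halo-Sox2D, 2.09 Halo-Sox2 and 5.57 endogenous Sox2 peaks per 100 kb, reached by 8.85%, 3.16% and 0.425% of genes. Mtf2 thus stood high in the endogenous Sox2 list by number and by density.

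The place inside Mtf2, 11.5 kb from the start and 26.3% of the way along the gene, spanned 118 bp (108077120 to 108077237) and held 1 Halo-Sox2M, 2 Halo-Sox2 and 4 endogenous Sox2 peaks. The Halo-Sox2M peak covered 2 bp, at 108077195 to 108077196, inside the overlap of a Halo-Sox2 peak and an endogenous Sox2 peak whose centres were 0.5 bp apart. A place of Halo-Sox2M and Halo-Sox2 was found in the windows of 0.845% of protein-coding genes, and one of Halo-Sox2M and endogenous Sox2 in those of 0.713%. Mtf2 was the only PRC2 gene with either. A place of Halo-Sox2D and Halo-Sox2M lay at none of the 7 genes, against 1.21%. An annotated alternative start of Mtf2 lies at 108078165, and the 7 centres lay between 934 and 1039 bp before it. The nearest Halo-Sox2D peak, at 108076403 to 108076414, lay 10.7 kb from the gene start and outside the place, which it joined when centres up to 1000 bp apart were joined. By that distance Halo-Sox2D met Halo-Sox2 at 3 places of the PRC2 genes and endogenous Sox2 at 6.

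The place at the Mtf2 promoter, described with its letters above, held 3 Halo-Sox2D and 2 endogenous Sox2 peaks in 93 bp, and another Halo-Sox2D peak lay 622 bp inside the gene. Endogenous Sox2 had a further pair of peaks 32.2 kb from the start, and Halo-Sox2 had 1 peak 29.6 kb before it. Halo-Sox2D and Halo-Sox2 shared no place at Mtf2 when centres within 500 bp were joined, although each shared 1 with endogenous Sox2. Endogenous Sox2 peaks at Mtf2 were closely spaced, and 4 of the 8 remained when peaks of the same library with centres within 50 bp were merged.

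**Figure D3:**
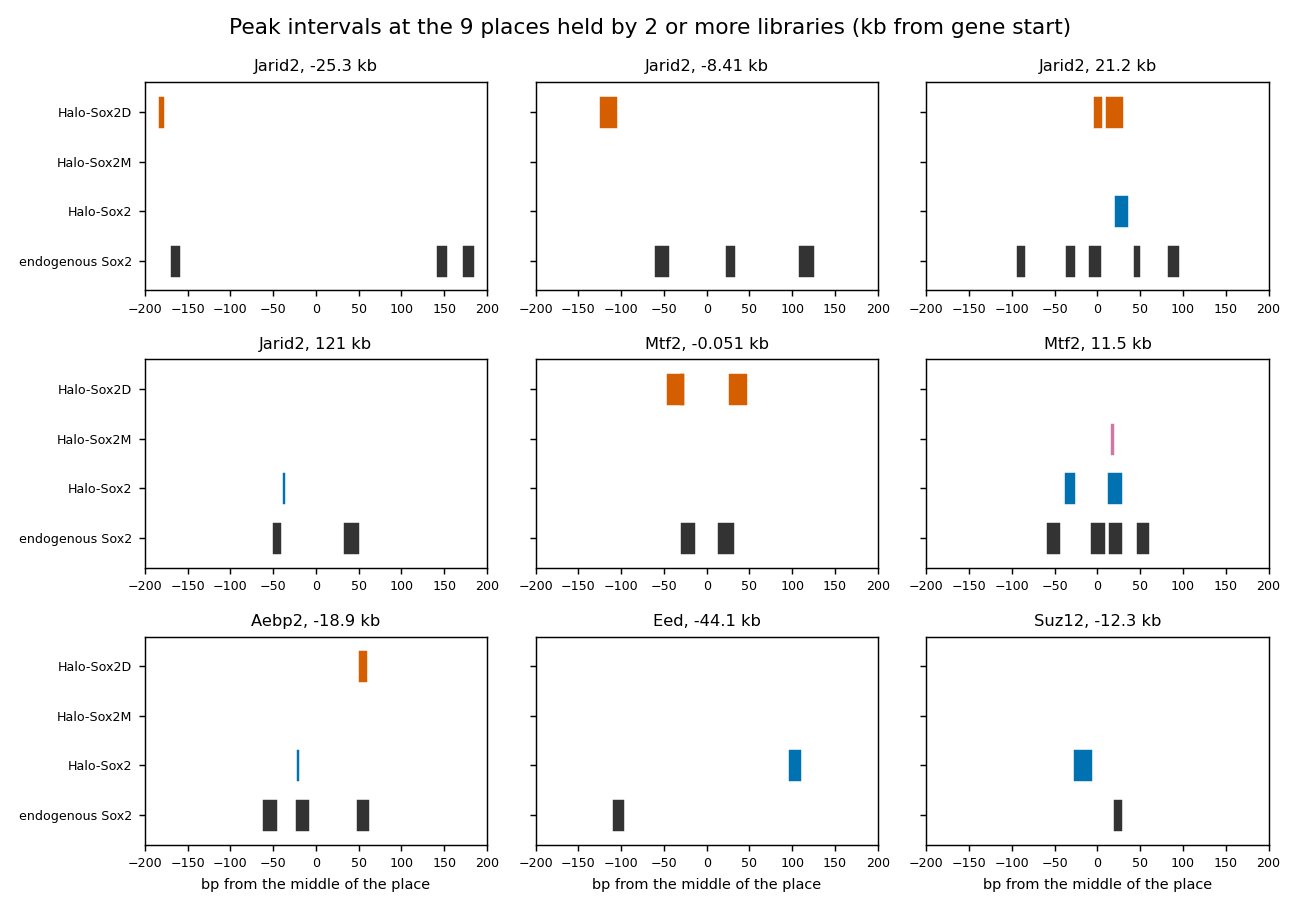
Peak intervals at the 9 places of the PRC2 genes held by 2 or more libraries, drawn to scale in bp from the middle of the place (horizontal axis), with 1 row per library. Endogenous Sox2 is present in all 9 panels, Halo-Sox2M in 1, and overlapping peaks of the same library merge into 1 block, as at the Mtf2 promoter.

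Aebp2 encodes a zinc-finger subunit that binds Suz12 and stimulates the methyltransferase. The gene (chromosome 6, 140622454 to 140678472, plus strand) had 3 Halo-Sox2D peaks, 0 Halo-Sox2M peaks, 2 Halo-Sox2 peaks and 3 endogenous Sox2 peaks. As many were found at 22.2%, 11.3% and 6.12% of protein-coding genes for Halo-Sox2D, Halo-Sox2 and endogenous Sox2, and as many per 100 kb at 20.6%, 8.8% and 5.24%. All 3 endogenous Sox2 peaks lay at 1 place 18.9 kb before the gene (140603513 to 140603635), with 1 Halo-Sox2D and 1 Halo-Sox2 peak. The centres of Halo-Sox2D and endogenous Sox2 were 0.5 bp apart there and those of Halo-Sox2 and endogenous Sox2 4.5 bp, while Halo-Sox2D and Halo-Sox2 lay 75.5 bp apart. This place is nearer to Plekha5, 6.41 to 6.52 kb away, than to Aebp2. The other peaks were 1 of Halo-Sox2D 10.1 kb before the gene, 1 of Halo-Sox2D 36.8 kb past its end inside the long non-coding gene Gm30215, and 1 of Halo-Sox2 inside the gene, 38.0 kb from the start.

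Phf19, the other Polycomb-like gene here (chromosome 2, 34893752 to 34914353, minus strand), had 0 Halo-Sox2D, 0 Halo-Sox2M, 1 Halo-Sox2 and 1 endogenous Sox2 peak. The Halo-Sox2 peak lay 7.13 kb before the gene at 34921481 to 34921489. The endogenous Sox2 peak lay 31.9 kb before it at 34946236 to 34946239, inside the gene Traf1. The peaks of the 2 libraries thus stood at separate places. Mtf2 and Phf19, members of the same protein family, differed in number, with 17 peaks at Mtf2 and 2 at Phf19.

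The core genes held fewer peaks than Jarid2 and Mtf2, and none in a gene body. Over Ezh2, Eed and Suz12 there was 1 Halo-Sox2D peak, 1 Halo-Sox2M peak, 2 Halo-Sox2 peaks and 3 endogenous Sox2 peaks. Per 100 kb of window, endogenous Sox2 had 0.606, 0.792 and 0.709 peaks at these genes, against 0.312 over all protein-coding windows. Halo-Sox2 had 0, 0.792 and 0.709 against 0.291, and Halo-Sox2D had 0.606, 0 and 0 against 0.705. Halo-Sox2M had 0, 0 and 0.709 against 0.0549. Each value above 0 rested on 1 peak. The 4 accessory genes held 15, 1, 10 and 27 peaks of Halo-Sox2D, Halo-Sox2M, Halo-Sox2 and endogenous Sox2, of which 7, 1, 7 and 14 lay inside the genes. Most of the accessory peaks lay at Jarid2 and Mtf2. A Halo-Sox2D peak lay in the body of 20.4% of protein-coding genes, a Halo-Sox2M peak in 1.31%, a Halo-Sox2 peak in 9.05% and an endogenous Sox2 peak in 7.41%, so the lack of such peaks at the core genes was the common state.

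Suz12 (chromosome 11, 79993106 to 80034123, plus strand) had 0 Halo-Sox2D peaks and 1 peak of each other library. A Halo-Sox2 peak at 79980756 to 79980775 and an endogenous Sox2 peak at 79980802 to 79980809, with centres 40.0 bp apart, formed a place 12.3 kb before the gene. The Halo-Sox2M peak lay 47.3 kb past the end of Suz12 and 0.318 kb from the neighbouring gene Crlf3. Eed (chromosome 7, 89954654 to 89980976, minus strand) had 1 Halo-Sox2 peak and 1 endogenous Sox2 peak, with centres 206 bp apart, at a place 44.1 kb before the gene (90025003 to 90025220), and no peak of Halo-Sox2D or Halo-Sox2M. Eed was the nearest protein-coding gene to that place.

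Ezh2 (chromosome 6, 47530274 to 47595270, minus strand) had 1 Halo-Sox2D peak 23.3 kb before the gene and 1 endogenous Sox2 peak 13.2 kb before it, and no peak of Halo-Sox2M or Halo-Sox2. Both lay in a 100-kb stretch that held 9 Halo-Sox2D, 42 Halo-Sox2M, 37 Halo-Sox2 and 4 endogenous Sox2 peaks. Nearly all of these began just past the window: from 50 to 100 kb before Ezh2 there were 8, 42, 37 and 3 peaks of Halo-Sox2D, Halo-Sox2M, Halo-Sox2 and endogenous Sox2. The gene Rn4.5s, annotated as ribosomal RNA, lies in that stretch; its part in these counts was not tested. With stretches of 15 or more peaks in a library left out, Ezh2 held no peak, and 3 PRC2 genes had a Halo-Sox2D peak and 6 an endogenous Sox2 peak.

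Set against all protein-coding windows, peak density over the pooled windows of the 7 PRC2 genes was higher in each library. For Halo-Sox2M this rested on 2 peaks, and for Halo-Sox2D on Jarid2 and Mtf2. The 7 windows covered 1140 kb. They held 1.4 Halo-Sox2D peaks per 100 kb against 0.705 over the merged windows of all protein-coding genes, a ratio of 1.99 (exact Poisson interval 1.14 to 3.22). For Halo-Sox2M the ratio was 3.19 (0.386 to 11.5), from 2 peaks, with an interval that includes 1. Halo-Sox2 gave 1.05 against 0.291 peaks per 100 kb, a ratio of 3.61 (1.86 to 6.3), and endogenous Sox2 gave 2.62 against 0.312, a ratio of 8.41 (5.67 to 12). Jarid2 and Mtf2 are set apart here because they held the most peaks, so their share is a description. Together they had 12 of the 16 Halo-Sox2D peaks, 1 of the 2 Halo-Sox2M peaks, 7 of the 12 Halo-Sox2 peaks and 23 of the 30 endogenous Sox2 peaks, in 434 kb of window. The other 5 genes had 4, 1, 5 and 7 peaks of these libraries in 709 kb. The density ratio of these 5 genes was 0.801 (0.218 to 2.05) for Halo-Sox2D and 2.57 (0.065 to 14.3) for Halo-Sox2M. It was 2.43 (0.787 to 5.66) for Halo-Sox2 and 3.16 (1.27 to 6.52) for endogenous Sox2. The endogenous Sox2 interval alone lay above 1. It treats the 7 peaks as independent, but 3 of them lay at 1 place before Aebp2 that is nearer to Plekha5. Another, at Phf19, lay inside Traf1. The interval is therefore too narrow, and whether it would stay above 1 when counted by places was not tested.

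**Figure D4:**
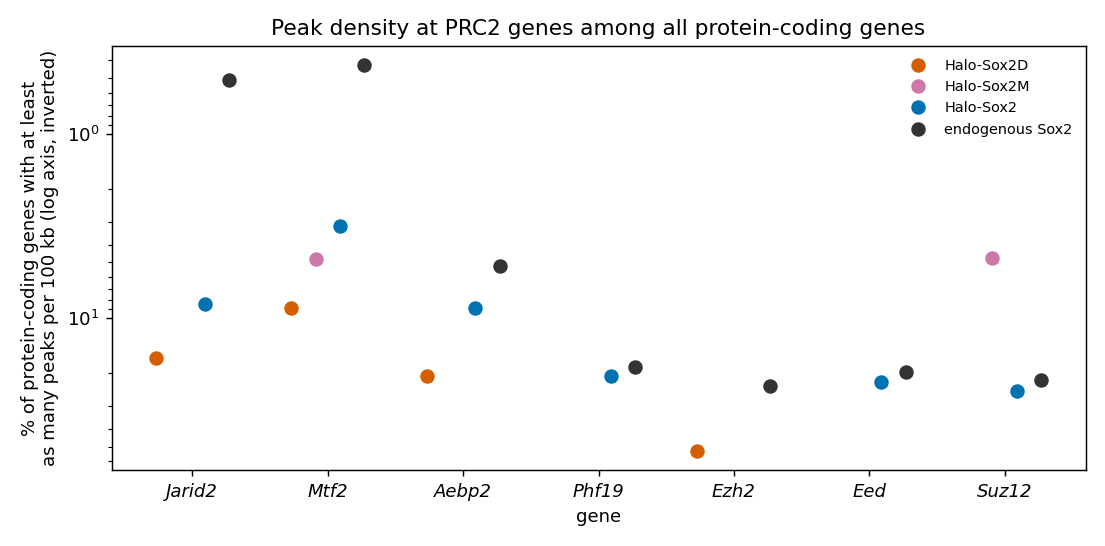
Percent of all protein-coding genes with at least as many peaks per 100 kb of window as each PRC2 gene (vertical axis, logarithmic and inverted, so that denser genes stand higher), with 1 point per library that had a peak. The endogenous Sox2 points of Jarid2 and Mtf2 stand highest, at 0.512% and 0.425%, and those of Phf19, Ezh2, Eed and Suz12 lie between 18.5% and 23.5%.

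Peaks lay before the genes far more often than past their ends. Of the 60 peaks, 28 lay within 50 kb before a gene, 29 inside and 3 past the end. Counted as places these were 12, 13 and 3. Each of the 7 genes had a peak before its start and 3 had one past the end, while over the 17492 protein-coding genes with a listed strand 44.6% had a peak of any library before the start and 43.0% past the end. Gene bodies made up 38.8% of the windows and held 48.3% of the peaks, in Jarid2, Mtf2 and Aebp2. For 52 of the 60 peaks the PRC2 gene was itself the nearest protein-coding gene.

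Tagged and endogenous Sox2 were set side by side first. Halo-Sox2 had 12 peaks at the PRC2 genes and endogenous Sox2 had 30, a ratio of 0.4 (exact binomial interval 0.187 to 0.805), although the whole lists stood at a ratio of 0.917. The direction turned in windows of 100 kb, with 51 Halo-Sox2 and 35 endogenous Sox2 peaks, of which 37 and 4 lay at Ezh2, next to the dense stretch described above. With dense stretches left out of the 50-kb windows, there were 12 and 29. Counted as places the libraries were closer, with 11 for Halo-Sox2 and 14 for endogenous Sox2, against 5206 and 4557 over the genome. The numbers came closer because endogenous Sox2 peaks came in clusters at Jarid2, Mtf2 and Aebp2. They met at 6 places, 54.5% of those of Halo-Sox2 and 42.9% of those of endogenous Sox2, against 21.3% and 24.3% over the genome. These 6 places lay at Jarid2, with 2, and at Mtf2, Aebp2, Eed and Suz12, with 1 each. Thus 5 of the 7 genes held such a place, as did 7.85% of all protein-coding genes.

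Next, the HMG-box mutant Halo-Sox2M was set against Halo-Sox2. Halo-Sox2M had 2 peaks at the PRC2 genes and Halo-Sox2 had 12, a ratio of 0.167 (0.0181 to 0.749) that spans the ratio of the whole lists, 0.261. The list of Halo-Sox2M held 44.2% of its peaks in dense stretches, mitochondrial DNA or unplaced sequence, against 11.1% for Halo-Sox2, and the lists stand at 0.164 without these. No lack of Halo-Sox2M at the PRC2 genes beyond the shortness of its list was therefore detectable at these counts.

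Last, the truncated Halo-Sox2D was set against Halo-Sox2. There were 16 Halo-Sox2D and 12 Halo-Sox2 peaks, a ratio of 1.33 (0.592 to 3.09), and the interval includes the ratio of the whole lists, 2.11. They met at 2 places, inside Jarid2 and before Aebp2, which is 15.4% of the 13 Halo-Sox2D places and 18.2% of the 11 Halo-Sox2 places, against 8.17% and 18.7% over the genome. A place of these libraries lay at 8.37% of protein-coding genes. Halo-Sox2D met endogenous Sox2 at 5 places, 38.5% of its own and 35.7% of those of endogenous Sox2, against 10.1% and 26.4% over the genome, at Jarid2 (3 places), Mtf2 and Aebp2. Such a place was found at 9.4% of protein-coding genes. Against endogenous Sox2 the ratio of peak numbers was 0.533 (0.272 to 1.01), below the 1.93 of the whole lists. By places there were 13 and 14, against 11913 and 4557 over the genome.

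In all, the 60 peaks formed 28 places, and 9 of these, with 40 peaks, were held by 2 or more libraries. Each of the 9 held endogenous Sox2. They were 64.3% of the 14 endogenous Sox2 places (Wilson interval 38.8 to 83.7%), which includes the 41.3% seen over all endogenous Sox2 places of the genome. Of the Halo-Sox2D places 38.5% (17.7 to 64.5%) were shared, against 14.9% over the genome. Of the Halo-Sox2 places 54.5% were shared (28.0 to 78.7%, an interval that includes the 32.3% over the genome). A place of 3 libraries lay at Jarid2, Mtf2 and Aebp2, and at 4.0% of all protein-coding genes. A place of 2 or more lay at 5 of the 7 genes, against 17.8%.

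Other Polycomb genes were looked up in the same way, 31 of them, from further PRC2 partners, the PRC1 complex that ubiquitinates histone H2A, and the demethylases of lysine 27. Of these, 26 had a Halo-Sox2D peak (83.9%, 67.4 to 92.9%), 2 a Halo-Sox2M peak (6.45%, 1.79 to 20.7%), 14 a Halo-Sox2 peak (45.2%, 29.2 to 62.2%) and 11 an endogenous Sox2 peak (35.5%, 21.1 to 53.1%). Against the backgrounds above, the Halo-Sox2D interval alone lay apart. By class, endogenous Sox2 peaks were found at 4 of 7 further PRC2 partners, 7 of 22 PRC1 genes and 0 of 2 demethylases, and Halo-Sox2D peaks at 6, 19 and 1 of them.

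Places of 2 or more libraries were found at 9 of the 31 genes, against 17.8% of all protein-coding genes, and places of 3 at 2 of them, against 4.0%. Their windows also hold neighbouring genes, and the places are listed as a description. Phc1, a polyhomeotic subunit of PRC1, had 3 Halo-Sox2D, 4 Halo-Sox2 and 7 endogenous Sox2 peaks and a place of these 3 libraries 0.727 kb from the gene. Rnf2, the ubiquitin ligase of PRC1, had 4, 1 and 5 peaks of the same libraries and a place of all 3 at 43.5 kb. Rbbp4, a histone-binding subunit of PRC2, had 5 Halo-Sox2D peaks and 1 endogenous Sox2 peak, and a place of both at 0.007 kb from the gene start. It was another of the genes with centres of Halo-Sox2D and endogenous Sox2 in the same promoter window. Rbbp7, its close relative, had 2 Halo-Sox2D and 2 endogenous Sox2 peaks at a place 4.21 kb from the gene. Epop, a PRC2 partner, had 8 Halo-Sox2D, 1 Halo-Sox2 and 3 endogenous Sox2 peaks, with a place of Halo-Sox2D and endogenous Sox2 at 5.98 kb. Lcor and Phc3 had places of Halo-Sox2 and endogenous Sox2, inside the gene and 37.5 kb away. Pcgf2 had a place of Halo-Sox2D and Halo-Sox2 at 26.2 kb, and Rybp a place of Halo-Sox2D and endogenous Sox2 at 47.5 kb. The Pcgf2 place also lies in the window of Epop, so it is counted at both genes. None of these places held Halo-Sox2M.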

How the data were processed

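The authors deposited 1 peak list per library, with chromosome, start and end and no score. Per the submitters' processing notes, Bowtie2 and mm10 were used. Peak caller, threshold and filters: not given in the sources used here. Input DNA or mock isolations were not analysed here. Positions were made 1-based. Gene positions were those of RefSeq for GRCm38.p6, and strands and promoter letters from a RefSeq promoter table of the same build. Peaks were counted by centre in gene bodies extended by 50 kb, and centres within 500 bp were joined into places over all 4 libraries. Dense stretches were 100-kb bins with 15 or more peaks in any library. The work used Python 3.11.15, numpy 2.4.6, pandas 2.3.3, scipy 1.17.1 and matplotlib 3.10.9. Window counts were checked against bedtools 2.31.1 and on simulated data.

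With 1 library per group no test was run. Named were all 7 members, their shared places and, for each member and library, the peak nearest a gene end, and up to 10 other Polycomb genes with a shared place, ordered by libraries and then peaks. The members and gene lists were chosen with earlier results of these data known. Alternatives were other windows, the nearest gene, other joining distances, merged peaks and the removal of dense stretches.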

Additional observations from a re-analysis of the deposited data

How the results depend on the processing

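Of 145 recomputed values on counts, places and densities, 108 stayed within 1.5 times the value reported (densities: within its interval) and 37 did not; of 168 recomputed counts for a single gene and library, 35 did not. With a window of 100 kb there were 34 Halo-Sox2D, 44 Halo-Sox2M, 51 Halo-Sox2 and 35 endogenous Sox2 peaks at the PRC2 genes, of which 10, 42, 37 and 4 lay at Ezh2, whose wider window takes in a dense stretch. The density ratio was then 45.3 for Halo-Sox2M and 9.99 for Halo-Sox2, 19 places were held by 2 or more libraries, and 9 by Halo-Sox2M and Halo-Sox2 and 9 by Halo-Sox2D and Halo-Sox2. Other Polycomb genes with a Halo-Sox2M peak numbered 4. With 20 kb, Halo-Sox2M had 1 peak at 1 PRC2 gene and 0 other Polycomb genes. In gene bodies alone, 2, 1, 3 and 2 PRC2 genes had peaks of Halo-Sox2D, Halo-Sox2M, Halo-Sox2 and endogenous Sox2, numbering 7, 1, 7 and 14, and 12, 0, 5 and 4 other Polycomb genes had one. There 3 places were shared, 3 by Halo-Sox2 and endogenous Sox2, 1 by Halo-Sox2D and Halo-Sox2 and 1 by Halo-Sox2D and endogenous Sox2. By nearest gene, Halo-Sox2M had 1 peak at 1 PRC2 gene, 1 place was held by Halo-Sox2D and Halo-Sox2, and 16, 1 and 8 other Polycomb genes had a peak of Halo-Sox2D, Halo-Sox2M and Halo-Sox2. By overlap of 1 bp, 2 places were held by Halo-Sox2 and endogenous Sox2 and 1 by Halo-Sox2D and Halo-Sox2. Merging peaks within 50 bp left 8 endogenous Sox2 peaks inside the genes. Densities by nearest gene were not run, nor a stricter threshold, since the lists hold no score. No paired analysis was possible because each group has 1 library. Depth is unknown, so a missing peak is not shown to be missing binding.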

Other observations

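Endogenous Sox2 peaks came in clusters at Jarid2, Mtf2 and Aebp2, while Phf19, Ezh2, Eed and Suz12 had 1 such peak each. The 30 endogenous Sox2 peaks filled 14 places, 2.14 per place, against 1.57 over the whole list. Halo-Sox2D had 1.23 peaks per place at these genes and Halo-Sox2 had 1.09, against 1.16 and 1.26 over their lists. Very narrow peaks were part of several results: the Halo-Sox2M peak in Mtf2 was 2 bp wide, and the Halo-Sox2 peaks at the shared places before Aebp2 and deep in Jarid2 and the Halo-Sox2D peak before Ezh2 were 1 bp wide. Over the lists, 8.44% of Halo-Sox2D, 9.47% of Halo-Sox2M, 9.41% of Halo-Sox2 and 7.33% of endogenous Sox2 peaks were 1 or 2 bp wide.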
